A study of Arabidopsis thaliana with 54 samples.

Results

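Whole rosettes of Arabidopsis thaliana Col-0 that had been through a cold spell and a warm recovery were compared with rosettes that had never met cold, just before both were moved to the cold. The comparison takes the 3 libraries of C28PLT at 0 h and the 3 libraries of C35P at 0 h, chosen by their titles, so 6 of the 54 libraries of the series. C28PLT plants were primed at 28 days by 3 days at 4 °C, stood for a lag of 7 days in the warm, and were 38 days old when sampled. C35P plants are the developmental control, which stayed in the warm and was sampled at 35 days. All were grown at 20 °C by day and 16 °C by night, with a day of 16 h. The light of 200 µmol was lowered to 90 µmol during cold, so the primed plants had also spent 3 days in dimmer light and were 3 days older, and these differences cannot be told apart from cold. Each condition has 1 library from each of 3 independent experiments (Exp1 to Exp3), and each library pools material of 5 samples. The question is what remains of a cold spell in the transcripts of leaves after a week of warmth. Another group, C28P at 0 h (28 days, never cold), is shown beside them, and its plants after 24 h of cold give the direction of a first cold response without sharing a library with the comparison.

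In Arabidopsis, cold switches on the CBF transcription factors within hours, and these bind the C-repeat in the promoters of COR genes, whose hydrophilic proteins protect membranes and enzymes. Plants given a cold spell can respond differently to a later one, which is called priming and memory, and the state between both spells is the state compared here. Leaves also hold a set of genes that react within minutes to touch, wounding or a change of light, such as the TCH genes of calmodulin-like proteins and xyloglucan endotransglucosylases, and the ERF, ZAT and WRKY factors of the early stress response.

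The authors deposited raw counts, which are shown as CPM (reads of a gene per 1e+06 reads of its library, scaled by the TMM method), and folds are log2 fold changes of primed minus control plants with their standard error (SE) from edgeR's quasi-likelihood fit. Totals of the 6 libraries ran from 23408399 to 31241430 counts, and 20720 of 36632 genes had enough counts to be tested. Levels relative to the mean of the 6 libraries correlated with gene length, which the main fit does not correct for. Spearman's rho was -0.430, 0.664 and -0.192 in control Exp1, Exp2 and Exp3. In primed Exp1, Exp2 and Exp3 it was 0.244, 0.112 and -0.465. Markers of leaf mesophyll summed to between 62383 and 92550 CPM in control and between 64558 and 82548 CPM in primed libraries, and 4 of 7 root markers were at 0 in all 6. The floral markers summed to 1.89 to 6.23 CPM in control and 3.97 to 10.8 CPM in primed libraries, the highest being primed Exp1, where the anther gene LTP12 had 2.699 CPM against 0 in the other 5. In whole rosettes fewer cells of a type and less RNA per cell cannot be told apart.

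At this point the rosettes of primed and never-cold plants differed in 1 called gene. XTH23 was lower in primed plants, and 0 genes were higher, at an adjusted p under 0.05 (edgeR's quasi-likelihood test, adjusted by Benjamini and Hochberg's method, 0.00483% of the tested genes lower and 0% higher). At an unadjusted p under 0.05, 752 genes (3.63%) passed, 184 higher (0.888%) and 568 lower (2.74%). DESeq2 called 49 genes, all lower. For comparison, the first 24 h of cold in C28P gave 2873 risen genes (13.9%) and 3165 fallen ones (15.3%) in the same fit. Leaving out C28P Exp1 at 0 h, a choice made after seeing the data, gave 3407 risen and 3554 fallen genes of 20977 tested. The precision of the comparison at 0 h is moderate. Of 20720 tested genes, 10224 (49.3%) had a 95% interval of the primed minus control difference that stayed inside 2-fold in both directions. Of 12133 genes with a mean CPM of 5 or more in either group, 8419 (69.4%) did.

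XTH23 (XTR6, AT4G25810) encodes a xyloglucan endotransglucosylase/hydrolase, an enzyme that cuts and rejoins the xyloglucan chains of the cell wall. It lies on the plus strand of chromosome 4 at 13128394 to 13129927 (RefSeq, TAIR10.1). The control libraries held 65.8, 6.04 and 2.29 CPM in Exp1, Exp2 and Exp3, from 1502, 207 and 63 reads. The primed libraries held 1.48, 0.780 and 1.58 CPM, from 34, 24 and 37 reads. All primed values lay below all control values, but the control values spread over more than an order of magnitude, and Exp3 control was close to the primed level. The fitted difference was a log2 fold change of -4.27 (SE 0.684, n = 3 per group, edgeR adjusted p = 0.0289). This SE takes its spread from all 54 libraries. Within Exp1, Exp2 and Exp3 the log2 difference was -5.41, -2.85 and -0.52. The 28-day plants that had never met cold held 13.2, 36.5 and 6.14 CPM, all above the 3 primed libraries. With the experiment as a block its log2 fold change was -4.09 and its edgeR adjusted p was 0.0681. In that fit 0 genes were called (913 at an unadjusted p under 0.05). The adjusted p of XTH23 over the alternatives ran from 2.28e-06, given by DESeq2, to 1. Its lowest edgeR adjusted p was 0.000433, without control Exp3. It was called in 9 of 22 alternatives. Leaving out 1 library gave 0 called genes without primed Exp2, primed Exp3 or control Exp1, and 2, 19 and 93 called genes without primed Exp1, control Exp2 and control Exp3. Without the control libraries of Exp1 and Exp2, an alternative chosen after seeing the data, its log2 fold change was -0.85.

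The 250 bases before the start of XTH23 are shown because it is the called gene, read 5′ to 3′ along the gene. They were searched for CCGAC, the core of the C-repeat, and for CGCGTT, the rapid stress response element of early wound and stress genes, on both strands, and hold neither of them, so no letters are in capitals. The window is chr4:13128144-13128393 on the plus strand.
XTH23: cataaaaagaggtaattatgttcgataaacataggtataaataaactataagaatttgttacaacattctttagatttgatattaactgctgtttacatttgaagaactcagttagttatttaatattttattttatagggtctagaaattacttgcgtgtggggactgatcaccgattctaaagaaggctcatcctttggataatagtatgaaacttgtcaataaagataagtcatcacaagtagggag
Over the 20719 tested genes with such a window, CGCGTT occurred in 600 (2.9%) and CCGAC in 2695 (13%). The absence of these letters describes this window alone.

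Of the other genes named as lower, all missed the threshold. XTH22 (TCH4), a wall enzyme known for its induction by touch, held 1071, 314 and 18.7 CPM in the control and 22.2, 17.45 and 13.5 CPM in the primed libraries. Control Exp1 and Exp2 were high, and control Exp3 lay within the primed range. The log2 fold change was -4.72 (SE 0.809, edgeR adjusted p = 0.0557), short of the threshold. XTH33, of the same enzyme family, held 38.5, 0.964 and 0.473 CPM in the control and 0.348, 0.357 and 0.470 CPM in the primed libraries, so its difference (log2 -5.07, SE 1.01, edgeR adjusted p = 0.0617) came almost wholly from control Exp1. BME3, a GATA factor known for its role in seed germination, held 358, 143 and 43.8 CPM against 31.4, 42.5 and 35.8 CPM. All primed values were below all control values, with Exp3 control nearest to them (log2 -2.31, SE 0.431, edgeR adjusted p = 0.0557).

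Enzymes of hormone metabolism stood beside them. ACS11, an ACC synthase of ethylene production, held 26.4, 9.55 and 1.57 CPM in the control and 1.70, 1.66 and 0.940 CPM in the primed libraries. Control Exp3 lay inside the primed range, and the log2 fold change was -3.12 (SE 0.629, edgeR adjusted p = 0.0617). CYP707A3, which breaks down abscisic acid, held 42.4, 48.2 and 1.75 CPM against 6.92, 1.92 and 1.45 CPM, again with control Exp3 among the primed values (log2 -3.17, SE 0.655, edgeR adjusted p = 0.0678). The remaining genes named as lower were AT3G59080 (log2 -2.02), AT2G39650 (-1.80), AT1G69900 (-2.25) and AT4G25620 (-1.11), with edgeR adjusted p of 0.0617, 0.0617, 0.0620 and 0.0678. Outside the naming rule, and chosen after its values were seen, PHI-1 showed the same spread at a higher level, with 1648, 244 and 7.94 CPM in the control and 10.8, 5.23 and 9.61 CPM in the primed libraries.

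**Figure D1:**
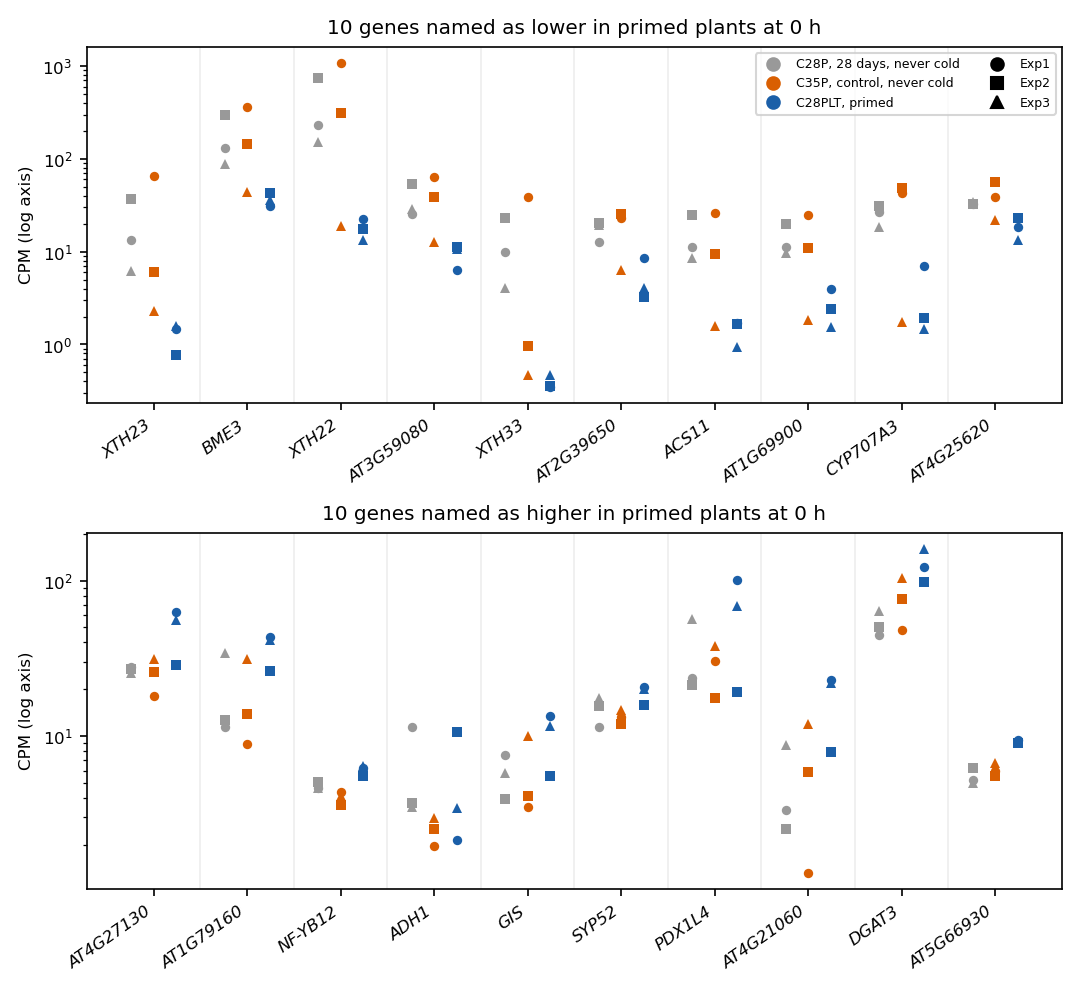
CPM on a log axis for the 10 genes named as lower (top) and the 10 named as higher (bottom) in primed plants at 0 h, with 1 point per library, coloured by condition and shaped by experiment. In the top panel control Exp1 and Exp2 lie above control Exp3 and the primed points, but in XTH33 only Exp1 stands high (38.5 CPM against 0.964 in Exp2). Control Exp3 lies nearer to the primed points, as for XTH22 at 18.7 CPM against 13.5 to 22.2 CPM.

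This division of the control libraries ran through the leading genes. In all 24 genes with an adjusted p under 0.1, every one of them lower in primed plants, control Exp1 and Exp2 both lay above the other 4 libraries. Control Exp1 was the highest of the 6 in 21 of them, and control Exp3 was at or below the highest primed library in 19. Over all 20720 tested genes, control Exp1 and Exp2 lay above the other 4 libraries in 1216. Among the 49 genes called by DESeq2 they did so in 47, and among the 568 genes lower at an unadjusted p under 0.05 in 377. These 3 sets were selected on the same libraries for their difference, so high control libraries are in part built into them. The count over all tested genes is therefore no independent yardstick. What set control Exp3 apart from the other control libraries was not tested.

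The early stress factors were the list with the largest shift. Of 21 genes, 12 were lower at an unadjusted p under 0.05, against 2.74% of all genes, and 0 were called by edgeR. This list and those below were chosen with earlier results of these data known. A share of a list set beside that of all genes is therefore a description and no independent test. Their median log2 fold change was -1.34, against -0.01 over all genes tested, and all 21 had a fold change below 0. The groups were without overlap in 2 of them, CRF2 and OXI1, where all primed libraries lay below all control libraries (3.03% of all tested genes did). ERF104, an ethylene response factor of early stress signalling, held 84.7, 72.0 and 6.08 CPM in the control and 17.8, 3.61 and 4.01 CPM in the primed libraries. Control Exp3 lay among the primed values, and the log2 fold change was -2.68 (SE 0.585). MYB44, a MYB factor of stress signalling, held 863, 517 and 149 CPM against 169, 118 and 113 CPM (log2 -1.94, SE 0.508), and control Exp3 lay below primed Exp1.

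The touch-induced calmodulin-like gene CML24 (TCH2) held 717, 332 and 133 CPM against 216, 93.5 and 137 CPM, with a log2 fold change of -1.41 (SE 0.498). Control Exp3 was again within the primed range. The zinc finger factor ZAT10 held 94.3, 165 and 22.97 CPM against 57.9, 13.8 and 13.7 CPM, with its highest value in control Exp2 (log2 -1.73, SE 0.692). The ethylene response factors ERF6 (log2 -2.40), ERF105 (-2.14) and ERF5 (-1.46), the factors WRKY40 (-2.28), RAV1 (-1.05) and NAC062 (-1.19), and the kinase gene OXI1 (-2.88, at most 1.08 CPM) were lower at the same unadjusted limit, as was CRF2 (-0.96). Within experiments the list's median difference was -1.36 in Exp1 and -2.27 in Exp2, and 0.00 in Exp3 to the second decimal. Without the control libraries of Exp1 and Exp2 the median was 0.32 and 0 of 21 genes passed the unadjusted limit, on a single control library that is assumed to vary like the other groups.

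**Figure D2:**
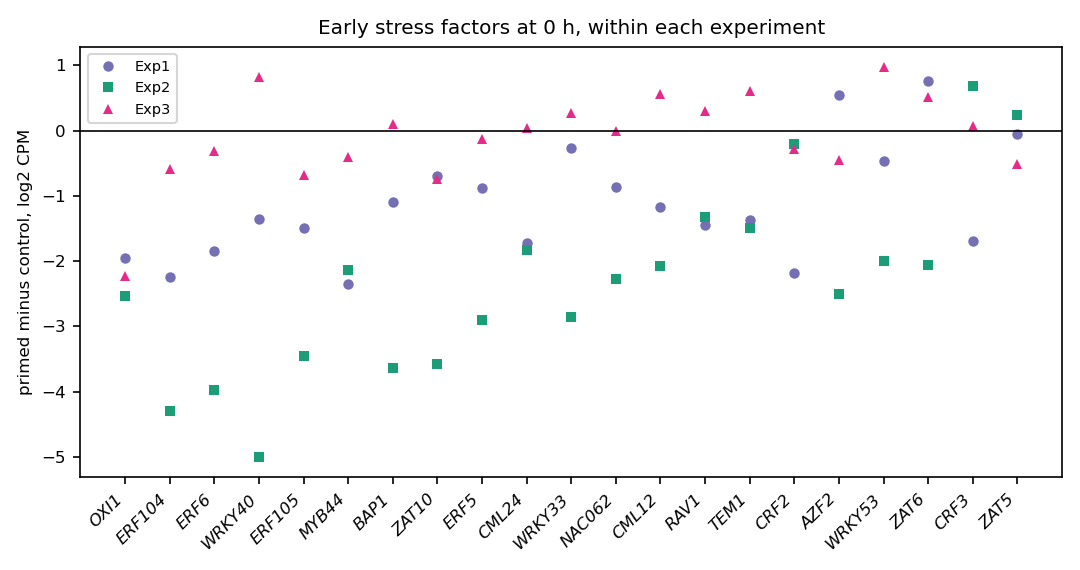
Difference of primed minus control log2 CPM within each experiment for the 21 early stress factors at 0 h, ordered by the fitted fold change. Exp1 and Exp2 points lie mostly below 0, while Exp3 points are spread around it, with list medians of -1.36, -2.27 and 0.00.

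Cell wall and hormone genes differed in which experiment held their shift. Their lists, too, were chosen with earlier results of these data known. Of 19 tested genes of wall growth, XTH23 was called and 6 were lower at an unadjusted p under 0.05, against 2.74% of all tested genes (median -0.23, with -1.05, 0.18 and -0.04 in Exp1, Exp2 and Exp3). These 6 were XTH23, XTH22, XTH33, XTH17 (log2 -2.48), XTH9 (-1.07) and FLA9, an arabinogalactan protein gene that held 574, 111 and 74.0 CPM in the control and 53.6, 77.2 and 85.0 CPM in the primed libraries (log2 -1.81). Only control Exp1 stood high there. EXPA1 and EXPA11 encode expansins, which loosen walls. EXPA1 held 146, 209 and 366 CPM against 350, 431 and 429 CPM, with control Exp3 above primed Exp1 (log2 0.75, SE 0.386), and EXPA11 held 76.4, 54.3 and 125 CPM against 159, 110 and 150 CPM (log2 0.71, SE 0.441). Neither passed the unadjusted limit. The expansin-like genes EXLA1 and EXLA2, which are on no list and were chosen after their values were seen, were lower in primed plants and called by DESeq2 (log2 -4.15 and -2.16), though not by edgeR on all libraries.

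Among 21 jasmonate and wound genes, 2 were lower at the unadjusted limit (2.74% of all tested genes were, which is also the background of the salicylate and abscisic acid counts), the lipoxygenase gene LOX4 (log2 -1.94) and the repressor gene JAZ7 (-3.24), and the median was -0.90. By experiment the medians were 0.13, -2.44 and -0.22, so the shift lay in Exp2. MYC2, the main factor of the pathway, held 49.3, 240 and 120 CPM against 82.6, 63.9 and 50.4 CPM, which overlap. Of 21 salicylate genes SARD1 alone was lower at the unadjusted limit (log2 -1.37). A fold change below 0 was found in 19 of them, with a list median of -0.53 (0.80, -1.79 and 0.31 by experiment). Of 18 abscisic acid genes 2 were lower at that limit, both of them genes of its breakdown, CYP707A3 and CYP707A1 (log2 -1.27). NCED3, which makes the hormone, held 2.32, 9.96 and 5.86 CPM against 3.48, 4.00 and 2.56 CPM.

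The COR and LEA genes, targets of cold signalling, lay slightly higher in primed plants without passing the test. Of 19 tested genes 0 were called, 0 passed the unadjusted limit, and 18 had a fold change above 0, with a median of 0.55 (0.61, 0.39 and 0.33 in Exp1, Exp2 and Exp3). COR47, COR78, KIN2 and COR413-PM1, 4 of the 19, had all primed libraries above all control libraries, against 1.9% of all tested genes. In C28P plants after 24 h of cold, 13 of the 19 had risen, against 13.9% of all tested genes, with a list median of 3.002. For those 13 genes the primed minus control difference at 0 h ran from 0.05 to 1.06, against 1.81 to 5.56 in the first cold. In each of the 13 the upper end of the 95% interval at 0 h lay below the first-cold value. The 13 were picked by their called rise in the first cold, which favours high values there. That value was taken without its own interval, and the difference between both changes was not tested.

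KIN2, a small hydrophilic protein of the cold response, held 420, 703 and 896 CPM in the control and 1106, 1100 and 1309 CPM in the primed libraries. The groups did not overlap, and the log2 fold change was 0.80 (SE 0.417). COR78 (RD29A) held 11.2, 30.2 and 27.6 CPM against 47.8, 60.4 and 32.3 CPM, also without overlap (log2 1.03, SE 0.631). COR15A, which protects chloroplast membranes, held 160, 327 and 573 CPM against 311, 620 and 771 CPM, higher in primed plants within each experiment but overlapping between experiments (log2 0.68, SE 0.463). COR47, a dehydrin, held 57.6, 89.0 and 89.2 CPM against 115, 107 and 123 CPM (log2 0.55, SE 0.555), and COR413-PM1, a membrane protein, held 163, 152 and 215 CPM against 224, 239 and 304 CPM (log2 0.53, SE 0.387). Reads of KIN1 and KIN2, and of COR15A and COR15B, are uncertain as to which near-identical copy they came from. Control Exp1 was the lowest of the 6 libraries for COR15A, COR47, COR78 and KIN2. Among C28P plants at 0 h, Exp1 held 290 CPM of COR47 and 278 CPM of COR78, above all 6 libraries, and also 77.2 CPM of the clock gene PRR5, which was at most 1.49 CPM in the 6.

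The promoters of COR15A and COR78 are shown for the C-repeat core that CBF factors bind, with each match to CCGAC or its reverse complement GTCGG in capitals. COR15A lies on the minus strand and its window is chr2:17712331-17712580, and COR78 lies on the plus strand with the window chr5:21240467-21240716 (RefSeq, TAIR10.1), both read 5′ to 3′ along the gene.
COR15A: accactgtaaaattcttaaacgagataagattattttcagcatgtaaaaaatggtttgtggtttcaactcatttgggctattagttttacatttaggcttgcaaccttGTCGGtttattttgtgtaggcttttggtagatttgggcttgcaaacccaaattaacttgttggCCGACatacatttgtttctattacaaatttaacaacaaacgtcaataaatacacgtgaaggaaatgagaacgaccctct
COR78: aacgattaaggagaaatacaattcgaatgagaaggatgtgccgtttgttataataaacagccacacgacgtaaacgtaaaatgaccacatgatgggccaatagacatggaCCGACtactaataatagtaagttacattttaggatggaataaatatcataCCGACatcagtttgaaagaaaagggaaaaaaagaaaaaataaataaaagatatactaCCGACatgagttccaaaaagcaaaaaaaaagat
COR15A has 2 matches, 142 bases before the start on the opposite strand and 79 bases before it on its own strand, and COR78 has 3, at 140, 90 and 33 bases, all on its own strand. Of the 19 COR and LEA genes 7 (36.8%) hold a match in these 250 bases, against 13% of all genes. The windows of KIN2 and COR47 hold none.

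**Figure D3:**
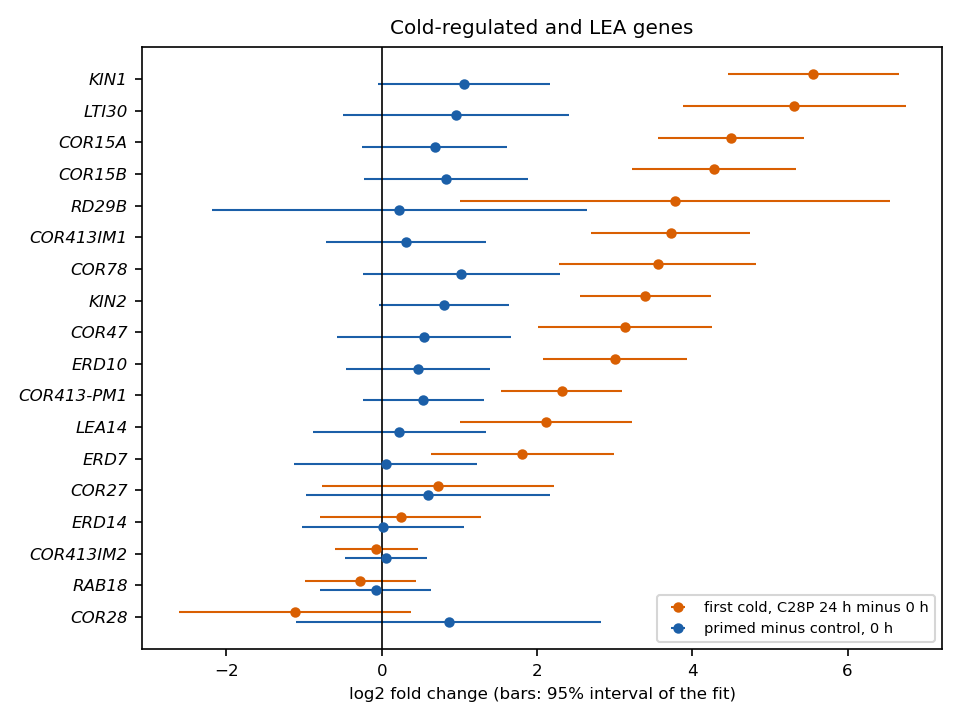
Log2 fold changes with 95% intervals for 18 of the 19 COR and LEA genes (LEA7, near 0 CPM, has no interval), for primed minus control plants at 0 h (blue) and for the first cold, C28P at 24 h minus 0 h (orange). The blue points lie between -0.08 and 1.06 and their intervals reach or cross 0. In the first cold 13 of the 19 genes rose, against 13.9% of all tested genes.

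The CBF factors themselves were low and uneven. CBF2 held 11.7, 50.8 and 10.5 CPM in the control and 28.4, 5.82 and 8.63 CPM in the primed libraries, which overlap. CBF1 held at most 5.27 CPM and CBF3 at most 4.32 CPM in any of the 6. These 3 genes are near-identical neighbours, so the split of reads between them is uncertain. Of the 6 CBF and DREB1 genes 0 passed the unadjusted limit, and their median was -1.12, with 0.81, -2.77 and -0.26 by experiment. Of 19 regulators of CBF genes also 0 passed, with a median of 0.09.

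Other pathways that respond to cold showed small differences. Of all tested genes, 2.74% were lower at the unadjusted limit. All primed libraries lay below all control libraries in 3.03% of them. Of 21 flavonoid and anthocyanin genes, 17 had risen in the first cold, against 13.9% of all tested genes. At 0 h LDOX, a late enzyme of anthocyanin synthesis, was the 1 gene of this list at the unadjusted limit. It held 26.2, 29.4 and 35.0 CPM in the control and 8.23, 16.8 and 15.6 CPM in the primed libraries, all below (log2 -1.16, SE 0.537). DFR, the enzyme before it, held 12.6, 19.6 and 25.4 CPM against 7.31, 10.5 and 11.4 CPM, also all below (log2 -0.98, SE 0.556), while TT4, the entry enzyme, overlapped. Of 22 antioxidant genes the thylakoid ascorbate peroxidase TAPX was lower at the unadjusted limit (log2 -0.51, SE 0.233), and the catalase gene CAT2 held 1347, 1358 and 1227 CPM against 1097, 1139 and 924 CPM, all below (log2 -0.31, SE 0.258). In sugar and proline metabolism 2 of 24 were lower at the unadjusted limit, PDH1 and ERD6. PDH1, which breaks down proline, held 20.2, 15.04 and 13.9 CPM against 9.97, 8.22 and 7.603 CPM, all below. The sugar transporter gene ERD6 (log2 -1.20) had its highest value, 130 CPM, in control Exp1.

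Of 21 nuclear photosynthesis genes, 19 had fallen in the first cold, against 15.3% of all tested genes. At 0 h 0 of the 21 passed the unadjusted limit, with a median of -0.17. LHCB1.3 held 31724, 31553 and 29838 CPM in the control and 26279, 37031 and 31315 CPM in the primed libraries, which overlap, and its reads may come from near-identical LHCB1 copies. FLC, the repressor of flowering that long cold silences, held 4.47, 1.23 and 2.04 CPM against 0.784, 5.04 and 2.35 CPM, also overlapping, and 0 of 22 flowering genes passed. The same count of 0 was found for photoprotection, heat shock, membrane lipids, senescence, the cell cycle, nutrients and the reference genes, so 12 of the 25 lists had no gene at the unadjusted limit, and 19 of the 25 had a median within 0.3 of 0 on the log2 scale.

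Among clock genes, GRP7, an RNA-binding protein under clock control, was higher at the unadjusted limit (log2 1.19, SE 0.504), but mainly through primed Exp2. It held 79.3, 77.7 and 94.9 CPM in the control and 51.5, 399 and 124 CPM in the primed libraries, where Exp1 lay below all control values. CHE was lower (log2 -0.89), with 309, 130 and 71.5 CPM against 84.9, 88.9 and 102 CPM, and control Exp3 was the lowest of the 6. CCA1, LHY and the PRR genes overlapped between the groups. Of all tested genes, 0.888% were higher and 2.74% lower at the unadjusted limit. All primed libraries lay above all control libraries in 1.9% of them. Among growth hormone genes GA2OX2, which inactivates gibberellin, was lower (log2 -2.05; 17.9, 7.62 and 2.48 CPM against 3.48, 1.98 and 1.28 CPM), and the auxin repressor gene IAA1 was higher without overlap (log2 0.79, SE 0.327), with 4.17, 4.96 and 7.54 CPM against 10.2, 8.81 and 9.95 CPM. Of 20 chromatin genes JMJ30, a histone demethylase, was the 1 at the unadjusted limit, with 1.40, 1.52 and 1.75 CPM against 2.83, 2.86 and 1.97 CPM, all above (log2 0.71, SE 0.312). The nucleolin gene NUC2 was likewise above in all 3 libraries (log2 1.73, SE 0.754) but at no more than 0.740 CPM, and the glucosinolate factor MYB51 was lower (log2 -1.36).

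**Figure D4:**
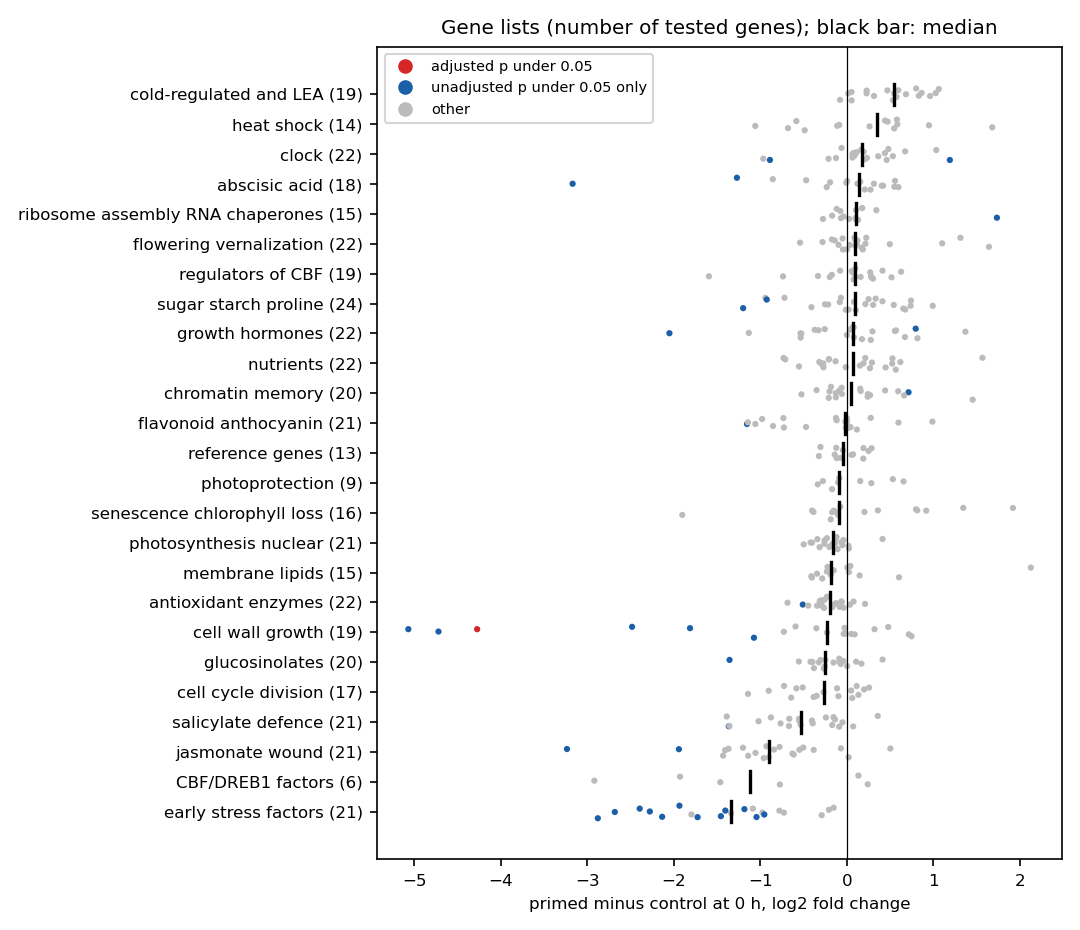
Log2 fold change of primed minus control plants at 0 h for each tested gene of the 25 lists, with the list median as a black bar and the number of tested genes in brackets. Early stress factors (median -1.34) and COR and LEA genes (median 0.55) are the outermost lists, and the 1 red point is XTH23.

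In the direction of higher expression nothing was called, and the 10 genes named by lowest unadjusted p had an edgeR adjusted p of at least 0.506. NF-YB12, a subunit of a histone-fold transcription factor, held 4.38, 3.59 and 4.11 CPM in the control and 6.23, 5.56 and 6.41 CPM in the primed libraries, all above (log2 0.59, SE 0.217). SYP52, a syntaxin of vesicle fusion, held 13.3, 11.9 and 14.7 CPM against 20.7, 15.8 and 20.0 CPM, also all above (log2 0.50, SE 0.195), and so did AT5G66930, at 5.92, 5.55 and 6.74 CPM against 9.36, 9.06 and 9.23 CPM (log2 0.60, SE 0.238). Of all tested genes, 1.9% had all primed libraries above all control libraries. The differences of NF-YB12, SYP52 and AT5G66930 were small, and no single library stood out. They were named from these same libraries by low unadjusted p and 1 direction in all experiments, a choice that favours close replicates. The other 7 overlapped between groups: AT4G27130 (log2 0.96), AT1G79160 (1.04), ADH1 (1.13), the trichome factor gene GIS (0.80), PDX1L4 (1.14), AT4G21060 (1.45) and DGAT3, an acyltransferase of oil synthesis (0.74). ADH1 owed its difference to primed Exp2, at 10.6 CPM against 2.13 and 3.46 CPM in the other primed libraries.

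Genes that the first cold moved had medians close to 0 before the second cold. The 2032 genes that had risen at least 2-fold in C28P at 24 h had a median of 0.05, and 43 of them were higher and 14 lower at the unadjusted limit, which 0.888% and 2.74% of all tested genes passed in these directions. The 2290 genes that had fallen at least 2-fold had a median of -0.08, with 13 higher and 232 lower, XTH23 among the lower ones. By experiment the medians of the fallen genes were -0.34, 0.06 and 0.14, with Exp1 lowest. Classes made without C28P Exp1 at 0 h, a choice made after seeing the data, gave similar counts. Of 2796 risen genes 42 were higher and 14 lower, and of 2686 fallen genes 14 were higher and 237 lower. Both classes were chosen on C28P at 0 h and 24 h, and C28P at 0 h held high levels of the touch and stress genes too, as with XTH22 at 230, 749 and 152 CPM. The part of those levels in the count of 232 was not tested.

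Once both kinds of plant were in the cold, XTH23 and XTH22 held similar levels in them, in libraries that share no sample with 0 h. At 2 h XTH23 held 9.12, 8.71 and 4.59 CPM in control and 7.52, 7.34 and 3.59 CPM in primed plants (log2 -0.28, SE 0.656), and XTH22 held 211, 401 and 431 CPM against 323, 370 and 316 CPM. Primed and control plants overlapped in both genes, and the primed ones had started at 0 h from at most 1.58 and 22.2 CPM. At 24 h, the same time of day as 0 h, XTH23 held 1.03, 0.650 and 0.256 CPM against 0.924, 0.449 and 0.441 CPM (log2 -0.13, SE 0.771). The change of the XTH23 difference from 0 h to 24 h had a log2 size of 4.15 (SE 1.03) and an edgeR adjusted p of 0.880, so it was not called either.

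At 2, 4, 6, 12 and 24 h edgeR's quasi-likelihood test called 0 genes between primed and control plants, and 176, 184, 114, 206 and 669 genes passed the unadjusted limit (0.849%, 0.888%, 0.55%, 0.994% and 3.23%). DESeq2 also called 0 at each of these times. For the change of the difference from 0 h to 24 h edgeR called 0 genes (623 at the unadjusted limit, 3.01%) and DESeq2 called 1. Of the 10 genes named as lower at 0 h, XTH33 passed the unadjusted limit in the same direction at 24 h (log2 -2.13, SE 0.987), with 4.59, 0.619 and 1.18 CPM in the control and 0.924, 0.337 and 0.241 CPM in the primed libraries, which overlap. Of the 10 named as higher, PDX1L4 (log2 1.00) and AT4G21060 (log2 1.296) passed the unadjusted limit of edgeR's test in the same direction at 24 h. At 12 h ACS11, named as lower, passed the unadjusted limit in the same direction (log2 -2.49, SE 1.35). None of these genes passed the adjusted limit at those times. In PDX1L4 and AT4G21060 primed Exp2 overlapped the control at 24 h, with 22.6 CPM of PDX1L4 against 17.9, 33.4 and 25.1 CPM.

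**Figure D5:**
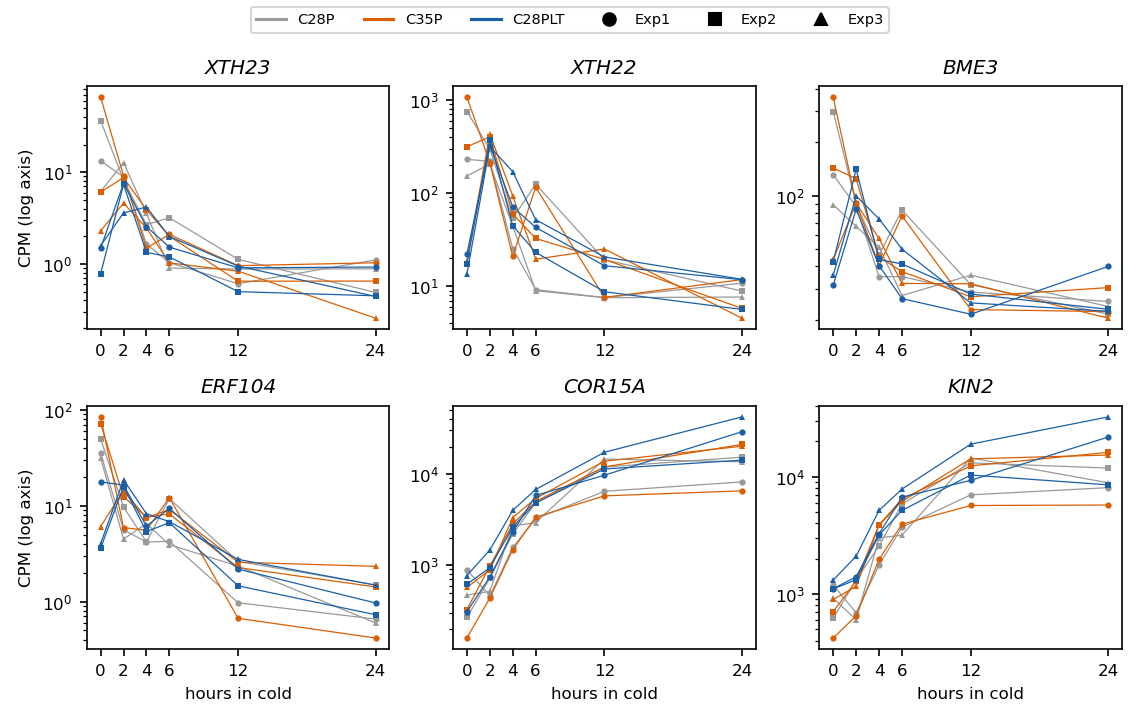
CPM on a log axis against hours in cold for XTH23, XTH22, BME3, ERF104, COR15A and KIN2 in all 54 libraries, 1 line per condition and experiment. Primed plants (blue) start low in XTH23 and XTH22 at 0 h and overlap the control at 2 h, as for XTH22 with 316 to 370 CPM against 211 to 431 CPM.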

How the data were processed

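RNA-seq libraries of whole rosettes were analysed from the deposited table of raw counts per gene. The authors made these counts with Trimmomatic (version not stated), STAR 2.7.9a and the genome build TAIR10, and the notes also name DESeq2 (version not stated), per the submitters' processing notes. The library kit marks strand, per the labels' protocols, but which annotation version and strand setting the counting used is not given in the sources used here. Overlapping or antisense genes and near-identical copies are therefore uncertain. All 36632 gene IDs matched the RefSeq table of TAIR10.1, from which names and promoter windows were taken.

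Genes were kept with filterByExpr (minimum count 10), scaled with TMM and tested with edgeR 4.0.16 under R 4.3.3, by a robust quasi-likelihood fit on all 54 libraries with 1 coefficient per group. Called genes have a p under 0.05 after Benjamini-Hochberg adjustment over all 20720 tested genes. CPM are counts per 1e+06 of the TMM-scaled library, and differences within an experiment are of log2 CPM with a prior count of 2. DESeq2 1.42.0, other scalings and filters, a length and GC offset, fits of fewer groups and leaving out libraries were tried as alternatives. The script was tested on simulated data. Libraries pool material of several samples, so p-values measure the spread between pools. That spread was estimated over all 54 libraries (36 residual degrees of freedom), not from the 6 compared libraries alone. With only the groups compared, 0 genes were called at 0 h.

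The members and gene lists were chosen with earlier results of these data known. The text names up to 15 called genes per direction, or, where fewer than 10 are called, those of lowest unadjusted p up to 10 in all, with a mean CPM of 5 or more in either group and 1 direction in all 3 experiments, and members of the lists. The replicate number names an independent experiment in the labels, so primed and control libraries of a number are paired, although their deviations from the group means correlated at only -0.228, -0.150 and 0.181 in Exp1, Exp2 and Exp3. No 2 libraries of a group were copies: their log2 values correlated at 0.947 to 0.966, with a chi-square per degree of freedom of at least 56.9. Without molecular identifiers, depth speaks for counting error alone.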

Additional observations from a re-analysis of the deposited data

How the results depend on the processing

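The count of 1 called gene at 0 h depended on the fit. It was 0 with the replicate block (913 genes at an unadjusted p under 0.05, against 752 without it), 0 with only the groups compared (479), 0 with those groups and the replicate block (390), 0 with only the 9 libraries of 0 h (414) and 0 without a filter on low counts (851). It was 7 with the length and GC offset, 2 with that offset and the replicate block, and 49 with DESeq2, and it stayed at 1 with RLE size factors, upper-quartile scaling and a minimum count of 50. Leaving out libraries or an experiment gave 0 to 93 called genes, the highest without control Exp3, where 2 of 93 were higher. Without the control libraries of Exp1 and Exp2 it was 0. The cause of these moves was not tested, except that the fits of fewer groups hold fewer samples.

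For the change from 0 h to 24 h DESeq2 called 1 gene, AT1G22470, and without an experiment the count at 24 h ran from 0 to 1 (AT5G47330, without Exp2). The first-cold count ran from 2633 to 6961 when an experiment or a library was left out, the highest without C28P Exp1 at 0 h. Among 63 named genes and 22 settings, 27 of 1380 values changed sign, in 22 genes, all of them in settings that leave libraries out. With libraries left out, values ran from -1.44 to 1.57 in CBF1, -2.09 to 0.75 in CBF2, -0.14 to 0.79 in CBF3 and -1.85 to 0.25 in XTH9. With the added setting without control Exp1 and Exp2 as the upper end, or in COR15A the lower one, they ran from -2.76 to 0.51 in AT1G69900, -4.18 to 0.97 in CYP707A3, -0.011 to 1.22 in COR15A, -3.83 to 0.48 in ERF104, -1.82 to 0.16 in CML24, -2.85 to 0.11 in ERF105, -3.32 to 0.50 in ERF6, -1.99 to 0.18 in ERF5, -2.77 to 0.31 in ZAT10, -3.16 to 1.11 in WRKY40, -1.44 to 0.42 in RAV1, -1.54 to 0.022 in NAC062, -1.32 to 0.36 in CHE, -3.77 to 0.12 in JAZ7, -2.42 to 0.31 in LOX4, -1.65 to 0.72 in ERD6, -1.79 to 0.34 in MYB51 and -1.77 to 0.14 in SARD1. The COR and LEA list kept a median above 0 in 21 settings (0.28 to 0.70), and the early stress list one below 0 (-1.82 to -0.82), and in the added setting without control Exp1 and Exp2 they were 0.14 and 0.32. With the replicate block alone, no call of a named gene other than XTH23 changed. With 3 libraries a group and the spread seen here, the 95% interval stayed inside 2-fold in 69.4% of the genes with a mean CPM of 5 or more. In the others it reached beyond 2-fold in at least 1 direction. Over all tested genes the share inside 2-fold was 49.3%.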
